A study of Mus musculus with 6 samples.

Results

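The genes of the major histocompatibility complex, named H2 in the mouse, were followed in the hearts of male C57BL/6 mice, which are inbred and widely used in the laboratory. Members were all noncontrol probes whose gene name in the scanner files starts with H2-. This rule took 55 of 41174 probes, which carry 36 of 27962 gene names. Of these, 38 probes (25 names) are class I genes, 15 probes (9 names) are class II genes, and 2 probes, H2-Ke2 and H2-Ke6, carry H2 names but encode no presenting molecule. One group of 3 mice had both adrenal glands removed (adrenalectomized, ADX) at 1 month of age, and the other group of 3 had a sham operation. Hearts were taken 6 months after surgery, although another label gives that figure as the age of the mice. No genetic change separates the groups, and the labels name no hormone replacement. Each heart was read on its own 1-colour Agilent array of 60-base probes, and the mice are described as biological replicates.

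Class I molecules sit on nearly all nucleated cells, pair with beta-2-microglobulin and show peptides made inside the cell to CD8 T cells. Class II molecules are made chiefly by dendritic cells, macrophages and B cells, and show peptides taken up from outside to CD4 T cells, with H2-DM and H2-O as editors of peptide loading. Glucocorticoids, which the adrenal cortex makes, are known to restrain antigen presentation and inflammation. The class I genes of the Q, T and M regions are close relatives of H2-K1 and H2-D1, and many of their probes share sequence with one another.

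Levels are log2 processed signals relative to the 75th percentile of the same array, differences are ADX minus sham on that scale, and SE is the standard error from limma. Testing was limited to probes that stood well above background throughout 1 group or the other, 23988 in all and 41 of the 55 H2 probes. No H2 probe was saturated. The 75th percentile ran from 644 to 924 intensity units, and the spots well above background made up 57.7% to 60.2% (sham) and 60.5% to 66.8% (ADX). The 3 sham arrays and ADX 1 lay on slide 1, and ADX 2 and ADX 3 on slide 2, which held no sham array. A difference within slide 1 therefore sets ADX 1 alone against the 3 sham arrays, and what slide 2 adds cannot be told apart from what sets those mice apart. Myl2, the ventricular myosin light chain, lay 9.40 to 9.76 above the 75th percentile on the 6 arrays, so this defining marker of heart muscle was bright throughout. Because whole heart RNA was measured, more cells of a type and more RNA per cell cannot be told apart.

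No H2 probe passed the limma test after Benjamini-Hochberg adjustment over all 23988 probes at 0.05, where 0% of all probes passed as higher and 0.00417% (1 probe) as lower. At an unadjusted limma p under 0.05, 6 H2 probes were higher and 0 lower, against 5.82% and 7.89% of all probes. These 6 were both probes of H2-Aa, 1 probe of H2-DMb2, the probe of H2-Eb1 and a pair of H2-Q10 probes. The sign was the same for most members, with 37 of 41 tested H2 probes higher in ADX hearts against 53.5% of all probes. In 14 H2 probes (34.1%) all 3 ADX values lay above all 3 sham values, against 9.68% of all probes, and in 1 (2.44%) they lay below, against 10%. Median centring lowered the first of these counts to 10 of 41, against 5.32% of all probes above and 12.2% below. The count of 6 higher probes at an unadjusted p under 0.05 was 1, 7 and 3 without sham 1, 2 and 3. Without sham 3, 2 probes were also lower. The share of all probes at that p was not counted for the alternative fits. Without ADX 1, 2 and 3 the count of higher probes was 12, 1 and 2. With the slide as a fixed block, and on slide 1 alone, this count was 1, and 29 of the 41 probes were higher rather than 37. With normexp on the local background in place of the processed signal, which moved the median of all probes to -0.17 and called 1722 probes higher and 8182 lower, 31 H2 probes were higher, 14 of them past the adjusted threshold, and 7 passed as lower.

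The median difference was 0.18 over the tested H2 probes and 0.02 over all probes tested. A pair of the tested probes, 1 of H2-T24 and that of H2-T3, passed the background filter through the ADX arrays alone, and of the 39 probes above background on every array, 35 were higher. Related members share sequence, so these counts are not counts of independent genes.

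**Figure D1:**
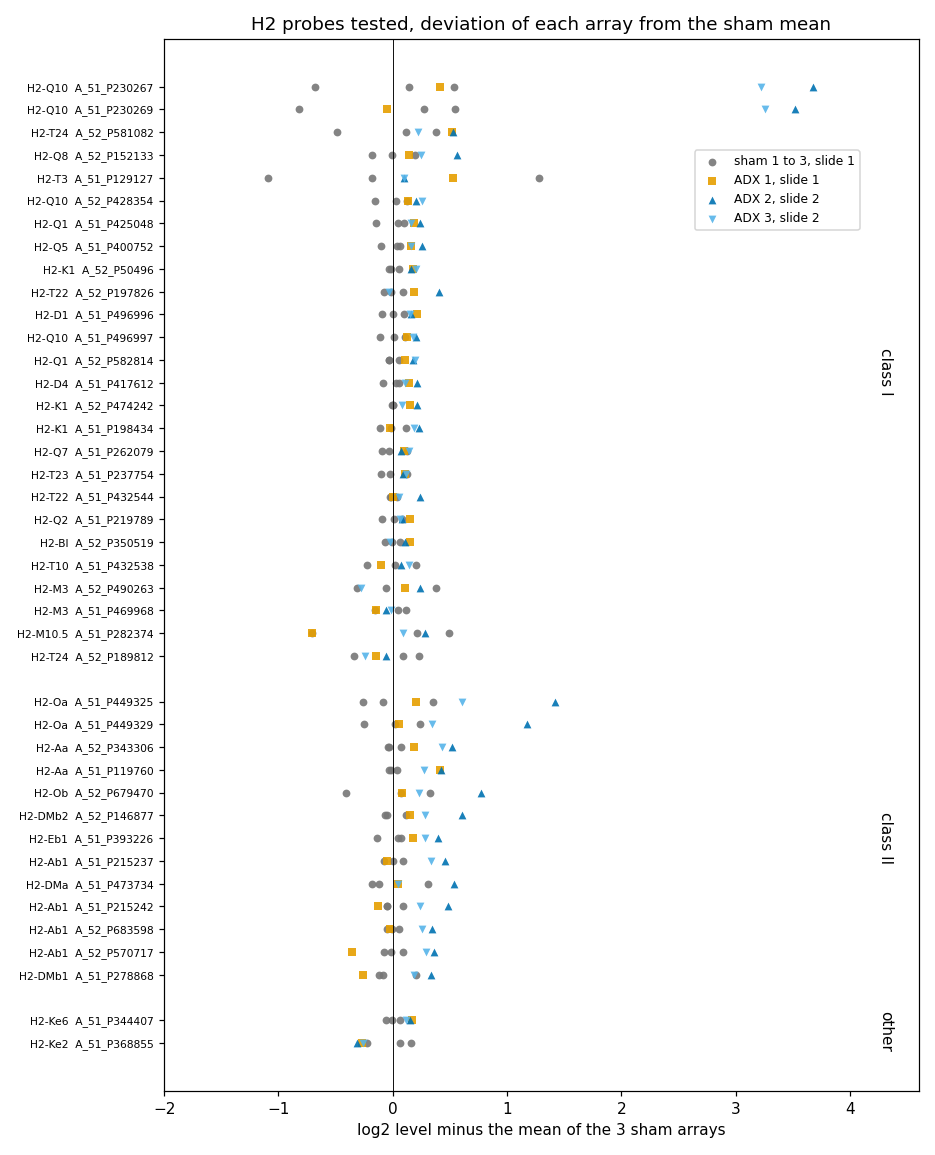
Each row is 1 of the 41 H2 probes tested, and the x axis gives its log2 level on each of the 6 arrays minus the mean of the 3 sham arrays, with markers for sham, ADX 1 (slide 1) and ADX 2 and 3 (slide 2). Most class I rows stay within a narrow band, a pair of H2-Q10 probes reach more than 3 above the sham mean on ADX 2 and ADX 3 only, and most class II rows have ADX 2 farthest to the right.

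In the K and D region, which holds the classical class I genes H2-K1 and H2-D1 and the pseudogene H2-D4, all 5 tested probes were higher in ADX hearts, by 0.13 to 0.18. The H2-K1 probe with the highest mean, A_51_P198434, read 5.90, 6.03 and 5.80 in sham hearts and 5.89, 6.14 and 6.10 in ADX hearts. ADX 1 lay inside the sham range, so the groups overlapped, and the difference was 0.13 (SE 0.12, limma adjusted p = 0.661). Within slide 1 it was -0.02. Another H2-K1 probe, A_52_P474242, read 3.09, 3.10 and 3.10 in sham and 3.25, 3.31 and 3.18 in ADX hearts. The third, A_52_P50496, read 2.82, 2.75 and 2.73 in sham and 2.94, 2.93 and 2.97 in ADX hearts. In both of these all ADX arrays were high, and the differences of 0.15 and 0.18 were about as large within slide 1 (0.15 and 0.18).

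H2-D1, the other classical class I gene of this strain, read 4.90, 5.00 and 4.81 in sham and 5.11, 5.06 and 5.05 in ADX hearts. The ADX arrays were all above the sham arrays, with a difference of 0.17 (SE 0.10, limma adjusted p = 0.507) and 0.21 within slide 1. H2-D4 (a pseudogene in RefSeq) read 2.59, 2.56 and 2.45 in sham and 2.68, 2.75 and 2.64 in ADX hearts, also without overlap (difference 0.16). The H2-D1 difference of 0.17 on the log2 scale is 1.13-fold. With normexp on the local background H2-D1 differed by 0.54 (limma adjusted p = 0.0396), H2-D4 by 0.47 (0.0345), and the H2-K1 probes A_52_P474242 and A_52_P50496 by 0.47 (0.0332) and 0.48 (0.0263). Of all 23988 probes, 1722 passed as higher under that correction and 8182 as lower.

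The promoters of H2-K1 and of H2-Q10, a relative that encodes a secreted class I protein known chiefly from liver, are shown because the genes are close in sequence and some of their probes differed in pattern. Of the 36 names, 35 were in the RefSeq table and 26 had a promoter entry. Shown are the 250 bases before the gene start in RefSeq (GRCm38.p6), with matches in capitals to the kappa B palindrome GGGGANTCCCC and the CCAAT box read on either strand, ATTGG. H2-K1 lies at chr17:34000348-34000597 on the minus strand and H2-Q10 at chr17:35469839-35470088 on the plus strand.
H2-K1: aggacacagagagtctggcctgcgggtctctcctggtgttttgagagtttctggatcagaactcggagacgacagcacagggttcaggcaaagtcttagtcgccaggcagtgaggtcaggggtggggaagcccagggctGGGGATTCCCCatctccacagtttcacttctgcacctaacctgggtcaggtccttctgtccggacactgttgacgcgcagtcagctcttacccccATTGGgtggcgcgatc
H2-Q10: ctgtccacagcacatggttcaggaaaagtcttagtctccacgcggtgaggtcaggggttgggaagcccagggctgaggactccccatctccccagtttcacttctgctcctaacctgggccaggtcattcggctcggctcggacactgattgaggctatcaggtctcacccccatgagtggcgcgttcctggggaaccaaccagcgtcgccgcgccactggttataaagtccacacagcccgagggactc
In the stretch of H2-Q10 that lines up with the 11-base match of H2-K1, 2 bases differ, G2A and T6C, with the H2-K1 base first and positions counted from the 5′ end of that match. On either strand of the 250 bases, GGGGANTCCCC was found in 0.0457% of 32851 RefSeq promoters and in 2 of 18 class I gene names with an entry, H2-K1 and H2-D1. ATTGG was found in 33.8% of all promoters and in 16 of those 18 names.

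In the Q region, set by gene name, all 10 tested probes were higher in ADX hearts, with a median difference of 0.19. The H2-Q10 probes split into 2 patterns. A_51_P230267 (chr17:33574366-33574425 on the mm7 assembly of the array design, for which exon and UTR positions were not used here) read -3.61, -2.79 and -2.39 in sham hearts and -2.52, 0.75 and 0.29 in ADX hearts. A_51_P230269 (chr17:33575263-33575322) read -2.91, -1.81 and -1.54 in sham and -2.14, 1.43 and 1.17 in ADX hearts. In both, ADX 1 lay inside the sham range and only ADX 2 and ADX 3, the slide 2 arrays, were high. The fitted differences were 2.44 (SE 0.83, limma adjusted p = 0.287) and 2.24 (SE 0.93, limma adjusted p = 0.359), or 5.42-fold and 4.73-fold. With normexp on the local background the same differences were 0.86 and 1.38. Within slide 1 they were 0.41 and -0.05, and ADX 2 and 3 exceeded ADX 1 by 3.04 and 3.44.

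The other pair of H2-Q10 probes did not show this jump. A_51_P496997 (chr17:33574106-33574165) read 5.09, 5.19 and 4.97 in sham and 5.21, 5.29 and 5.26 in ADX hearts, a difference of 0.17 (SE 0.11, limma adjusted p = 0.517). A_52_P428354 (chr17:33571803-33571862) read 2.40, 2.50 and 2.22 in sham and 2.51, 2.58 and 2.63 in ADX hearts, a difference of 0.20 (SE 0.11, limma adjusted p = 0.485). In both, all ADX values lay just above all sham values, and the within-slide 1 differences were 0.13 and 0.14. Each sequence is shown beside a probe named for another class I gene, with the longest run that the pair shares in capitals.
H2-Q10 A_51_P496997: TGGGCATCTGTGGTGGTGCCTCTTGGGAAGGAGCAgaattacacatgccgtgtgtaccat
H2-Q5 A_51_P400752: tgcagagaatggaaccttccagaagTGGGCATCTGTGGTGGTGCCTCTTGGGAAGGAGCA
H2-Q10 A_52_P428354: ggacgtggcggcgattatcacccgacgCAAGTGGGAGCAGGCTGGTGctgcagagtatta
H2-K1 A_52_P50496: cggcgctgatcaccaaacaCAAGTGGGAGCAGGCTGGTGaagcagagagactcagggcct
The first 2 share 35 of their 60 bases and the last 2 share 20, so which class I transcripts each of these probes read is uncertain. Outside the shared run the last 2 also differ at several aligned bases. The jump probe A_51_P230269 was not compared with relatives, and whether sequence bears on the patterns was not tested. The probe A_51_P230267 likewise differs from related probes within the stretch they have in common. Its 30-base core is shown with those of H2-Q7 and H2-T23, with each position that differs among the 3 in capitals.
H2-Q10 A_51_P230267: GCcatcAttAAagctCtggtggTAtttgtg
H2-Q7 A_51_P262079: GCcatcAttGGagctGtggtggCTtttgtg
H2-T23 A_51_P237754: ATcatcCttGGagctGtggtggCTtttgtg
Counted from the 5′ end of the core and with the H2-Q10 base first, H2-Q10 and H2-Q7 differ by 5 substitutions, A10G, A11G, C16G, T23C and A24T. H2-Q10 and H2-T23 differ at 8 positions, and H2-Q7 and H2-T23 at 3. The contrast between the pairs of H2-Q10 probes was picked out after their values were seen.

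**Figure D2:**
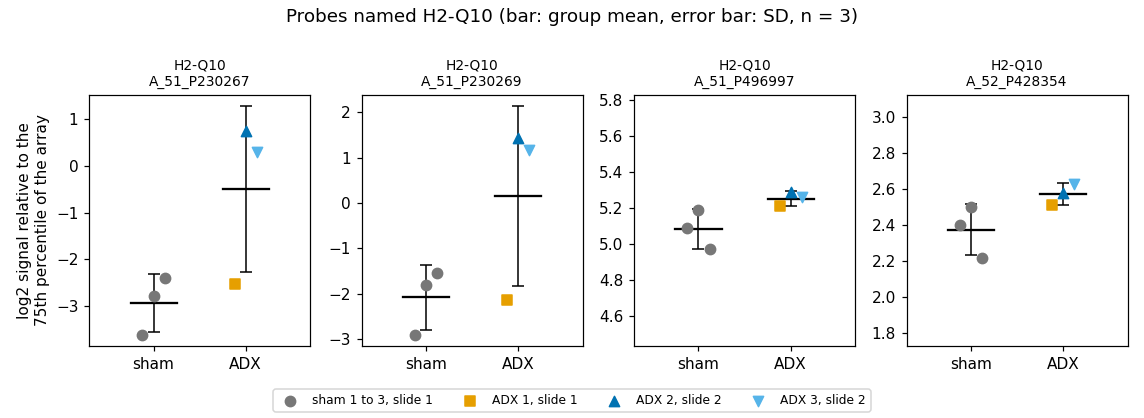
The 4 panels give the log2 signal of each H2-Q10 probe against the array's 75th percentile, with 1 point per heart, the group mean as a bar and the SD (n = 3) as the error bar. Each panel has its own y axis. ADX 2 and ADX 3 stand apart in the first 2 panels (0.75 and 0.29, then 1.43 and 1.17), whereas in the last 2 the 3 ADX arrays lie together just above the sham arrays.

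The other Q region probes differed by 0.10 to 0.32, with no jump on slide 2. H2-Q1, a nonclassical gene, read 4.93, 5.02 and 4.93 in sham and 5.07, 5.14 and 5.16 in ADX hearts with A_52_P582814, and 2.96, 3.01 and 2.76 against 3.10, 3.15 and 3.07 with A_51_P425048. Neither probe overlapped between groups, and the differences were 0.16 and 0.19. A_52_P582814 lies at chr17:33480880-33480939 on mm7, nearer the H2-Q8 probe than the other H2-Q1 probes, so the gene it reads is uncertain. H2-Q5, a pseudogene in RefSeq whose probe shares the 35-base run shown above, read 4.70, 4.73 and 4.56 in sham and 4.82, 4.92 and 4.82 in ADX hearts, a difference of 0.19 without overlap. Its probe lies at chr17:34255077-34255511 on mm7, between the probes of H2-T22 and H2-T10 and away from the other Q region probes. With normexp on the local background both H2-Q1 probes shown, the H2-Q5 probe and the pair of H2-Q10 probes without the jump differed by 0.50 to 0.54. All of these passed the adjusted threshold as higher, as did 1722 of all 23988 probes, while 8182 passed as lower. H2-Q7, which encodes the Qa-2 antigen, read 4.95, 5.11 and 4.89 in sham and 5.08, 5.06 and 5.13 in ADX hearts, and its groups overlapped (difference 0.11, SE 0.11, limma adjusted p = 0.690). H2-Q8 read 0.55, 0.75 and 0.38 in sham and 0.70, 1.12 and 0.81 in ADX hearts. ADX 2 was highest and ADX 1 lay inside the sham range, with a difference of 0.32 (SE 0.16, limma adjusted p = 0.423) and 0.15 within slide 1. H2-Q2 differed by 0.10.

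Regions follow gene names here, and no probe named for a T region gene separated the groups. H2-T23 encodes Qa-1, which shows leader peptides of other class I molecules to natural killer cell receptors. It read 5.11, 5.26 and 5.03 in sham and 5.24, 5.22 and 5.25 in ADX hearts, a difference of 0.11 (SE 0.11, limma adjusted p = 0.697) with sham 2 above all ADX arrays. H2-T22, a ligand of gamma delta T cells, read 1.18, 1.13 and 1.12 in sham and 1.15, 1.38 and 1.20 in ADX hearts (difference 0.10), and its other probe differed by 0.18. H2-T10, its pseudogene-labelled relative, read 3.09, 3.27 and 2.84 in sham and 2.96, 3.14 and 3.21 in ADX hearts, with groups that overlapped throughout (difference 0.04, and -0.11 within slide 1). The probes of H2-T24 went opposite ways. A_52_P189812 differed by -0.15, and A_52_P581082 was well above background on 0 sham and 3 ADX arrays. The latter was thus tested through the ADX arrays alone, and its groups overlapped (difference 0.42, SE 0.23, limma adjusted p = 0.460). A per-array floor in sham hearts was also used, the lowest detected signal or the probe's own if higher. The ADX mean was 1.26-fold that floor, which with overlapping groups is not a minimum increase. H2-T3, the thymus leukemia antigen, was above background on 1 sham and 3 ADX arrays, and its sham values spread from -5.44 to -3.07, around all ADX values. The tested H2-Bl probe differed by 0.08.

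The M region held most of the probes without measurable signal. H2-M3, which shows N-formylated bacterial peptides, read 0.50, 0.57 and 0.30 in sham and 0.31, 0.39 and 0.44 in ADX hearts, all within the sham range (difference -0.07, SE 0.11, limma adjusted p = 0.810). Its other probe differed by 0.02 and H2-M10.5 by -0.11. The remaining 8 M region probes (H2-M1, H2-M9, H2-M11 and the H2-M10 genes 1 to 4 and 6) were not tested, and of these only H2-M10.2 was well above background on any array, on 2 of the ADX arrays. Also untested among class I were 2 probes of H2-Bl, 1 of H2-Q1 and 1 named H2-D1 whose description in the scanner files is a thymus leukemia antigen.

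Among class II chains, H2-Aa and H2-Eb1 were higher on all 3 ADX arrays, while H2-Ab1 was higher on ADX 2 and ADX 3 only. Both H2-Aa probes gave the smallest p-values of all H2 probes. H2-Aa encodes the alpha chain of I-A, the class II molecule that this strain makes at the cell surface. The promoter of H2-Aa and the probes are shown because this gene separated the groups with both. The 250 bases before its RefSeq start lie at chr17:34287824-34288073 on the minus strand (GRCm38.p6), and capitals mark the cAMP response element palindrome TGACGTCA and the reverse CCAAT box ATTGG, motifs of the kinds that class II promoters are known for.
H2-Aa: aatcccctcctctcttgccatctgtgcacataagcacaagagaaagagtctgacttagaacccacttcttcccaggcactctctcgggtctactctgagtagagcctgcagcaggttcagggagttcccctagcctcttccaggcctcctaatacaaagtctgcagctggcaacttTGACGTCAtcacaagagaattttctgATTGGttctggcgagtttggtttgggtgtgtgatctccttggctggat
H2-Aa A_51_P119760: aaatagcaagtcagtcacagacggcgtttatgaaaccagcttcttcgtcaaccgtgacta
H2-Aa A_52_P343306: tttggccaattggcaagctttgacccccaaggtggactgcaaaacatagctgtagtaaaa
On either strand, TGACGTCA was found in 1.55% of all RefSeq promoters and in 1 of 7 class II gene names with an entry. ATTGG was found in all 7 of these class II names, against 33.8% of all promoters.

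With A_51_P119760, H2-Aa read 0.55, 0.62 and 0.56 in sham hearts and 0.99, 1.00 and 0.85 in ADX hearts. With A_52_P343306 (chr17:32362310-32362369 on mm7) it read 0.61, 0.72 and 0.62 in sham and 0.84, 1.17 and 1.08 in ADX hearts. All ADX arrays, ADX 1 included, lay above all sham arrays with both probes. The group means were 0.58 ± 0.04 and 0.95 ± 0.09 (SD, n = 3) with the first probe and 0.65 ± 0.06 and 1.03 ± 0.17 (SD, n = 3) with the second. The differences were 0.37 (SE 0.10) and 0.38 (SE 0.12), or 1.29-fold and 1.31-fold, with limma adjusted p-values of 0.223 and 0.261 over all probes and unadjusted p-values of 0.0084 and 0.016. Within slide 1 they were 0.42 and 0.19, and with normexp on the local background 0.42 and 0.45 (limma adjusted p = 0.0388 and 0.0361). Under normexp 1722 of all 23988 probes passed as higher.

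H2-Ab1 encodes the beta chain that pairs with H2-Aa, and its 4 probes did not separate the groups. The probe with the highest mean, A_52_P683598, read 3.93, 3.99 and 3.88 in sham and 3.91, 4.28 and 4.19 in ADX hearts. ADX 1 lay inside the sham range while ADX 2 and ADX 3 were high, for a difference of 0.19 (SE 0.13, limma adjusted p = 0.546). Over the 4 probes the difference ran from 0.09 to 0.25, but within slide 1 from -0.36 to -0.02. A pair of these probes cover the same 31 bases but for 2 letters, which are in capitals, and are shown because they test the same stretch in different spellings.
H2-Ab1 A_51_P215242: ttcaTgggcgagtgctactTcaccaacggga
H2-Ab1 A_52_P570717: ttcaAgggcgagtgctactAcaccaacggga
Counted from the 5′ end of the overlap and with A_51_P215242 first, the differences are T5A and T20A. A_52_P570717 has no mm7 position in the array design, and which spelling these mice carry was not tested. The lowest H2-Ab1 differences, 0.09 over all arrays and -0.36 within slide 1, came from A_52_P570717. A_51_P215242 read 1.13, 0.99 and 0.99 in sham and 0.91, 1.52 and 1.28 in ADX hearts, and A_52_P570717 read 0.17, 0.07 and 0.01 against -0.27, 0.44 and 0.37. The order of the ADX arrays was the same with both, ADX 1 lowest and ADX 2 highest.

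H2-Eb1, the beta chain of I-E, read 2.28, 2.49 and 2.46 in sham and 2.59, 2.81 and 2.70 in ADX hearts. All ADX arrays lay above all sham arrays, by 0.29 in the mean (SE 0.12, limma adjusted p = 0.350, unadjusted p = 0.043) and by 0.17 within slide 1. With normexp on the local background, where 1722 of all 23988 probes passed as higher, H2-Eb1 differed by 0.58 (limma adjusted p = 0.0244). H2-Ea, its alpha chain partner, is not transcribed in the H2b haplotype of C57BL/6 mice and is a pseudogene in RefSeq. Its probe was well above background on 0 sham arrays and 1 ADX array, so it was not tested.

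The editors of class II peptide loading gave mixed separation. H2-DMb2, a beta chain of H2-DM, read -1.70, -1.87 and -1.89 in sham and -1.67, -1.21 and -1.54 in ADX hearts with A_52_P146877, without overlap (difference 0.35, SE 0.15, limma adjusted p = 0.362, unadjusted p = 0.049). ADX 1 lay close to the highest sham array, and ADX 2 was highest. Its other probe was above background on no sham and 2 ADX arrays and was not tested. H2-DMa, the alpha chain, read -1.16, -1.10 and -0.67 in sham and -0.93, -0.44 and -0.93 in ADX hearts (difference 0.21, SE 0.19, limma adjusted p = 0.666), and sham 3 was above 2 of the ADX arrays. H2-DMb1, the other beta chain, read 1.03, 1.32 and 1.00 in sham and 0.86, 1.45 and 1.30 in ADX hearts. Its ADX 1 value was below all sham values, so the difference of 0.09 (SE 0.18, limma adjusted p = 0.869) was -0.26 within slide 1.

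H2-Oa and H2-Ob form H2-O, an inhibitor of H2-DM best known from B cells. H2-Oa read -3.33, -2.71 and -3.15 in sham and -2.86, -1.65 and -2.46 in ADX hearts with A_51_P449325. ADX 2 was far the highest and ADX 1 lay among the sham arrays, with a difference of 0.74 (SE 0.32, limma adjusted p = 0.369), or 0.20 within slide 1. Its other probe differed by 0.53. H2-Ob read -3.14, -3.39 and -3.87 in sham and -3.38, -2.69 and -3.23 in ADX hearts, again with ADX 2 highest (difference 0.36, SE 0.24, limma adjusted p = 0.550). H2-Oa, H2-Ob and H2-DMb2 are dim here, and their sign depended on the background correction: with normexp on the local background they differed by -0.37, -0.87 and -0.29.

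**Figure D3:**
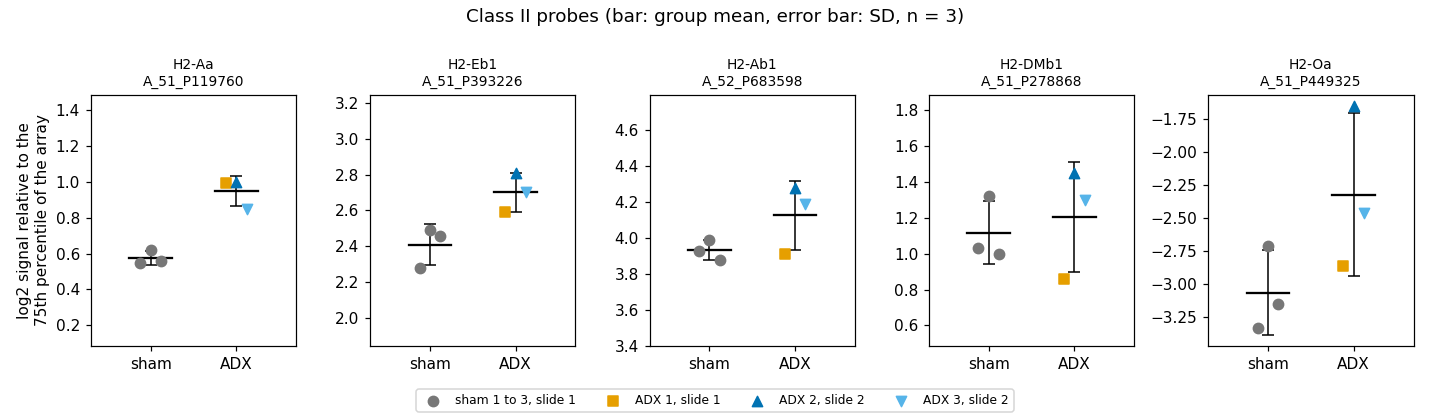
The 5 panels give the log2 signal of 1 probe each of H2-Aa, H2-Eb1, H2-Ab1, H2-DMb1 and H2-Oa against the array's 75th percentile, with 1 point per heart, the mean as a bar and the SD (n = 3) as the error bar. Each panel has its own y axis. All ADX points are above all sham points for H2-Aa and H2-Eb1, while ADX 1 (square) falls within or below the sham points for the other genes.

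H2-Ke2, which encodes prefoldin subunit 6, was the only member with ADX values below all sham values. It read 4.51, 4.42 and 4.13 in sham and 4.08, 4.04 and 4.09 in ADX hearts. The ADX arrays were close together and the sham arrays spread, with a difference of -0.28 (SE 0.13, limma adjusted p = 0.389) that was 0.08 with normexp on the local background. H2-Ke6, or Hsd17b8, an enzyme of steroid and fatty acid metabolism, read 2.64, 2.52 and 2.57 in sham and 2.74, 2.73 and 2.69 in ADX hearts, without overlap (difference 0.14, and 0.44 with normexp, limma adjusted p = 0.0296). Under normexp 1722 of all 23988 probes passed as higher.

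Set side by side, class II probes had the larger median difference over all 6 arrays, 0.29 over 13 tested probes (all 13 higher) against 0.16 over 26 class I probes (23 higher). With normexp on the local background this order turned, with medians of 0.32 for class II and 0.47 for class I. The 4 class II and 9 class I probes whose ADX values lay above all sham values make up 30.8% and 34.6% of those tested, against 9.68% of all probes. With median centring they were 4 (30.8%) and 6 (23.1%), against 5.32% of all probes. Leaving out the pair of H2-Q10 probes that jumped on slide 2 gave a class I median of 0.15, an alternative added after seeing the data. Per array, the median deviation from the sham mean was 0.14, 0.21 and 0.14 for class I and 0.06, 0.48 and 0.28 for class II on ADX 1, 2 and 3. Class II thus exceeded class I on both slide 2 arrays and not on ADX 1, where class I was ahead. On the sham arrays the medians were 0.01, 0.11 and -0.10 for class I and -0.03, 0.07 and -0.06 for class II, so class II on ADX 1 lay within the sham range. The gap between the class medians was 0.13 over all arrays and -0.09 within slide 1. It was not tested, because members of a class share sequence and arrays and are not replicates. Without ADX 2 the class II median was 0.16 and the gap 0.04, and without sham 3 the gap was 0.19. Within class II, the A and E chains had a median of 0.25 over all arrays and -0.02 within slide 1, and the H2-DM and H2-O genes 0.35 and 0.07.

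**Figure D4:**
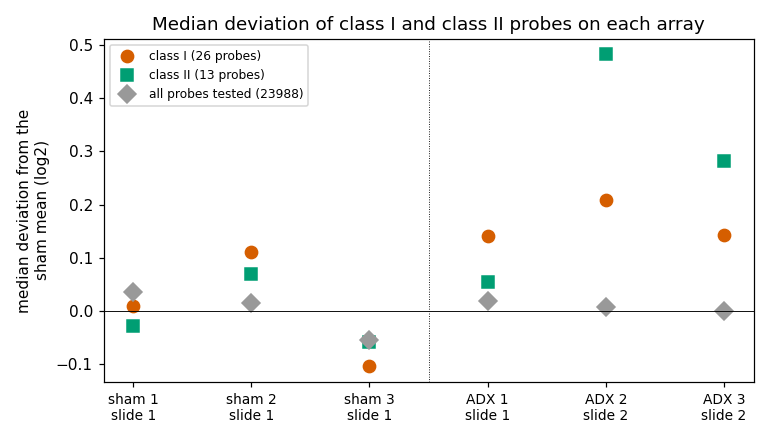
The x axis gives the 6 arrays with their slide and the y axis the median over probes of the log2 deviation from the sham mean, for class I (26 probes), class II (13 probes) and all 23988 probes tested. Class I is 0.14 to 0.21 on all 3 ADX arrays, class II is 0.06 on ADX 1, 0.48 on ADX 2 and 0.28 on ADX 3, and all probes stay near 0.

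The genes that serve the class I molecules did not share one direction. Of 22 listed genes (chaperones, peptide transporters, immunoproteasome subunits, regulators and class I-like molecules), 20 were tested and none passed after adjustment. At an unadjusted p under 0.05, 2 were higher and 2 lower, against 5.82% and 7.89% of all probes, and the median difference was 0.06. B2m, the light chain of all class I molecules, read 4.41, 4.57 and 4.57 in sham and 4.79, 4.78 and 4.75 in ADX hearts, all ADX arrays above all sham arrays (difference 0.26, SE 0.10, limma adjusted p = 0.335). Cd1d1, a class I-like molecule that shows lipids to natural killer T cells, read 0.30, 1.08 and 0.76 in sham and 0.82, 2.27 and 2.22 in ADX hearts (difference 1.06, SE 0.41, limma adjusted p = 0.332). Its high arrays were ADX 2 and ADX 3, the arrays on which the pair of H2-Q10 probes was high. The 2 lower genes were Pdia3 (ERp57 of the loading complex, difference -0.31) and Irf2 (an interferon regulatory factor, -0.42). Tap1, the peptide transporter subunit, differed by 0.21 and Psmb9, an immunoproteasome subunit, by 0.14.

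Of 18 listed genes of the class II pathway, 17 were tested. At an unadjusted p under 0.05, 0 were higher and 2 lower, against 5.82% and 7.89% of all probes, and the median difference was 0.17. The lower genes were Rfxank and Nfyb, subunits of the RFX and NF-Y complexes that bind class II promoters, at -0.31 and -0.46 (limma adjusted p = 0.281 and 0.358). Cd74, the invariant chain, differed by 0.11 (SE 0.20) and Ciita, the class II transactivator, by 0.22 (SE 0.24), neither beyond the spread between arrays. Of 15 receptors of H2 molecules, 9 were tested with 0 at an unadjusted p under 0.05 in either direction, and the smallest p-values belonged to Klra3 (-0.32) and Cd4 (0.19). Of 15 genes of the interferon gamma axis, which induces class I and class II genes, 14 were tested. Of these 13 were higher, against 53.5% of all probes, and 3 were higher at an unadjusted p under 0.05, against 5.82%. These were Cxcl9 (0.56, limma adjusted p = 0.166), Cxcl10 (0.73, 0.339) and Gbp2 (0.27, 0.361). Ifng itself was well above background on 0 sham arrays and 1 ADX array.

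Markers of cells that carry class II molecules moved with these values in part. Of 8 dendritic cell markers 6 were tested, all 6 higher, against 53.5% of all probes. Their median difference was 0.44, or 0.37 within slide 1. At an unadjusted p under 0.05, 3 were higher, against 5.82% of all probes. These were Itgax (0.72, limma adjusted p = 0.214), Ccr7 (0.67, 0.180) and Zbtb46 (0.48, 0.248). Clec9a and Cd209a were not well above background on any array. Ccr7 (1 sham array above background) and Flt3 (2) entered the test through the ADX arrays alone. The summed signal of the tested genes, as a multiple of the 75th percentile, was 1.06 to 1.13 on sham and 1.30 to 1.59 on ADX arrays. Of 8 B cell markers 4 were tested, all higher, against 53.5% of all probes, with a median of 0.77 that was -0.04 within slide 1. Their median deviation was -0.41, 0.38 and -0.04 on sham 1, 2 and 3, and -0.04, 1.57 and 0.56 on ADX 1, 2 and 3. This order of the ADX arrays was that of H2-Oa and H2-Ob. It was also that of H2-Ab1, H2-Eb1, H2-DMb1, the pair of H2-Q10 probes that jumped and the adipocyte markers. The summed B cell signal was 1.02 to 1.96 in sham and 1.47 to 4.27 in ADX hearts. Of 10 macrophage markers, 3 were higher and 7 lower, with a median of -0.07 and sums of 105 to 126 in sham and 111 to 134 in ADX hearts. The part of these cells in the class II values was not tested.

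Markers of other cells also differed between arrays. Of 7 adipocyte markers 6 were tested, all higher, against 53.5% of all probes, with a median of 1.58 that was 0.32 within slide 1. Their median deviation was -1.38, 1.00 and 0.37 in sham hearts and 0.32, 2.43 and 2.05 in ADX hearts, so ADX 2 and ADX 3 stood apart as they did for the pair of H2-Q10 probes and Cd1d1. Ucp1, the uncoupling protein of brown fat, read 1.20, 3.30 and 3.92 in sham and 4.26, 6.52 and 6.25 in ADX hearts. The summed adipocyte signal was 11.0 to 64.2 in sham and 47.1 to 207 in ADX hearts, and its part in the H2-Q10 values was not tested. Of 10 liver markers, listed after the H2-Q10 values were seen, 8 were on the array and 3 were tested, with sums of 3.54 to 5.18 in sham and 1.77 to 2.92 in ADX hearts. Ahsg (difference -0.95) carried most of that sum, while Apoa2 and Fgb, the latter above background on 1 sham and 3 ADX arrays, differed by 0.08 and 0.46. Alb, the defining one, was well above background on 1 sham and 1 ADX array, and Apoa1 on none. The endothelial and cardiomyocyte lists had medians of -0.21 and -0.17, with 1 of 7 members higher in each.

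**Figure D5:**
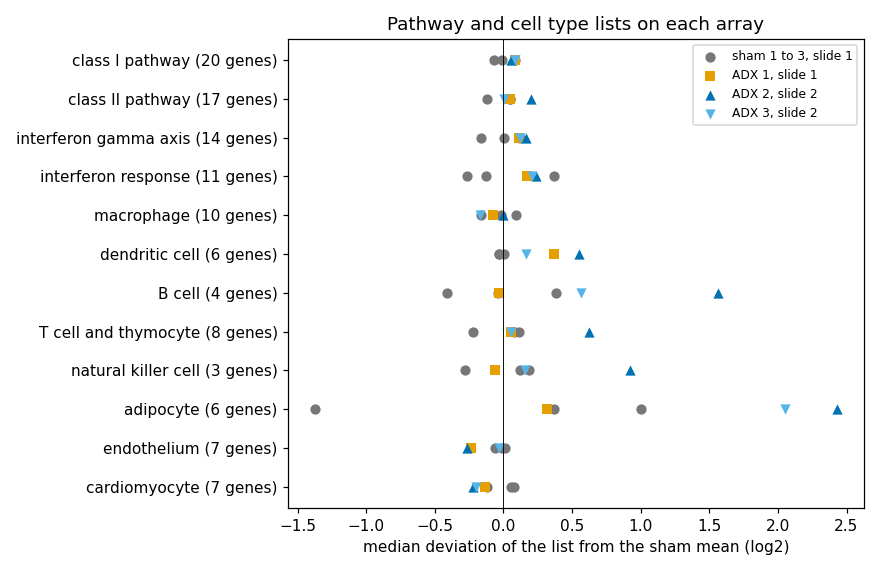
Each row is a list with the number of genes tested, and the x axis gives the median log2 deviation of its genes from the sham mean on each array. Adipocyte markers are at 2.43 and 2.05 on ADX 2 and ADX 3, B cell markers at 1.57 and 0.56, dendritic cell markers are above the sham arrays on all 3 ADX arrays, and macrophage markers remain within about the sham range.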

How the data were processed

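Per the labels' protocols, heart RNA was amplified and labelled with Cy3. The authors deposited the scanner output of each array, read with Agilent Feature Extraction (9.5 in the submitters' processing notes, 9.5.3.1 per the file headers). The deposited processed signal is a linear intensity after background subtraction and detrending inside each array, per the file headers. Low values carry a surrogate (15.3% to 22.0% of spots). The authors' value table repeats these intensities for all 45018 spots of every array, so it is linear and not centred.

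Values are log2 signals minus the array's 75th percentile, without control spots or outlier spots (80 to 133 an array), and averaged over the spots of 1 probe. The probe was the unit tested, with limma 3.58.1 (lmFit, eBayes) under R 4.3.3 and Benjamini-Hochberg adjustment over all 23988 tested probes. The fit was tested on simulated data. For the lists, each gene took its brightest tested probe, and the fit, p-values and adjustment are those over probes. The number of arrays limits the precision.

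The members and lists were chosen with earlier results of these data known, and the liver list after the H2-Q10 values were seen. Values of every array are given for 1 probe of each main class I and class II gene, the one with the highest mean, and for every H2 probe with an unadjusted p under 0.05 or groups that do not overlap. Of the pathway lists, members with an unadjusted p under 0.05, or else the 2 of smallest p, were named by rule. Tap1, Psmb9, Cd74, Ciita and Ifng, and the markers named for cell types, were added as examples after their values were seen. Alternatives covered background correction, scaling, filters, the unit tested, slide, replicate number, variance model and each array left out. Gene names are those of the scanner files, and sequences are from the scanner files and RefSeq. Tables and figures were made with Python 3.11.15, numpy 2.4.6, pandas 2.3.3 and matplotlib 3.10.9.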

Additional observations from a re-analysis of the deposited data

How the results depend on the processing

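Over 20 alternatives, no H2 probe passed the adjusted threshold except with normexp on the local background. With it 14 of 41 H2 probes passed as higher and 7 as lower, against 1722 and 8182 of all 23988 probes. The class I median was then 0.47 and the gap of class II over class I -0.15. There H2-M3 (0.0498), H2-Oa (-0.37), H2-Ob (-0.87), H2-DMb2 (-0.29) and H2-Ke2 (0.0788) changed sign. With the slide as a fixed block, and on slide 1 alone, the class II median was 0.0553 and the gap -0.0860. H2-K1 A_51_P198434 (-0.0204), H2-T10 (-0.11), H2-Ab1 A_52_P683598 (-0.0249), H2-DMb1 (-0.26) and H2-Q10 A_51_P230269 (-0.0529) changed sign. Both settings give the same differences, because the other slide held no sham array. They are thus a single contrast of ADX 1 with the sham arrays, not separate checks. The cause was not tested for these changes or for those with normexp.

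With each array left out in turn, 0 H2 probes passed as higher or lower, the class I median ran from 0.12 to 0.18, the class II median from 0.16 to 0.36 and the gap from 0.04 to 0.19. H2-T10 ran from -0.0746 (without sham 3) to 0.136, and was also below 0 without ADX 3 (-0.0162). H2-DMb1 ran from -0.0368 (without ADX 2) to 0.256. Of the values of 29 named probes, 513 kept their sign and side of the threshold, 18 changed sign and 13 kept their sign and passed it newly, these 13 all with normexp. H2-Ob, among the 18, also passed it there (limma adjusted p = 0.0196). The alternative that took the authors' deposited values could not differ, because they repeat the processed signal, and its values are among the 513. The slide block and slide 1 alone give equal differences, so the same sign changes are counted for both among the 18. With the replicate number as a block, 0 H2 probes passed, and the medians were 0.16 and 0.29. At an unadjusted p under 0.05, 7 were higher, with the share of all probes not counted. Deviations of arrays with the same number correlated at 0.14, 0.14 and -0.20, so no strong pattern shared by number was seen. So few arrays cannot settle whether the numbers pair the mice. Dim probes such as H2-Oa and H2-Ob limit what can be read from their sign.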

Other observations

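Genes of the general interferon response, which class I genes also follow, were higher in ADX hearts for all 11 tested of 12 listed, against 53.5% of all probes. Their median difference was 0.22 (0.17 within slide 1). None passed after adjustment. Irf7, a regulator of type I interferon genes, read -0.75, -0.28 and -0.75 in sham and 0.00, -0.28 and -0.16 in ADX hearts (difference 0.45, limma adjusted p = 0.309). Rsad2, an antiviral enzyme, read 1.71, 1.60 and 1.52 in sham and 2.40, 2.46 and 1.81 in ADX hearts (difference 0.61, limma adjusted p = 0.254), with all ADX arrays above all sham arrays.

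T cell and thymocyte markers, the partners of the H2 molecules, had a median difference of 0.29 over 8 tested of 11. Of these 6 were higher, against 53.5% of all probes. The median deviation was 0.07, 0.11 and -0.22 on sham 1, 2 and 3, and 0.06, 0.62 and 0.06 on ADX 1, 2 and 3. Only ADX 2 lay above all sham arrays, and it was the highest array. ADX 2 was also the highest array for every tested class II probe and for the B cell and adipocyte markers. Among class I, this was so for H2-Q8, H2-K1 A_51_P198434 and the pair of H2-Q10 probes that jumped, among others. ADX 2 had the most spots well above background (66.8%) and the fewest surrogates (15.3%) of the arrays. Most of the T cell markers tested are dim, which limits what their order can show. At an unadjusted p under 0.05, Cd3g (0.32, limma adjusted p = 0.338) and Dntt (0.85, 0.320) were higher, against 5.82% of all probes. Rag1 and Ptcra, genes of immature thymocytes, were not well above background on any array. Natural killer cell markers had a median of 0.34 over 3 tested of 7. They were also highest on ADX 2, at 0.92 against 0.18, 0.12 and -0.28 on sham 1, 2 and 3. Of these, Eomes was above background on 1 sham and 3 ADX arrays and so entered the test through the ADX arrays alone.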
